A study of Mus musculus with 6 samples.

Results

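The genes described here are 20 genes for cytosolic aminoacyl-tRNA synthetases and 13 genes of the amino acid response, namely Atf4 and 12 genes known as its targets. They were chosen by symbol, and all 33 were found among the 23827 rows of the table, with 1 row each. RNA was taken from mouse embryos at E14.5 (days of embryonic development) by TRAP, a method in which the ribosomes of 1 cell type, here brain endothelium, carry a tag and are captured with their mRNA. The 3 wild-type libraries and the 3 libraries from embryos overexpressing Axin1 from the Rosa26 locus (R26 Axin1 IresLacZ) came from the strain background C57BL/6 x 129/Sv, and the mothers of both groups had been given tamoxifen at E12.5. Per the labels, libraries within a group are biological replicates. The promoter behind the recombination or the ribosome tag, whether wild-type embryos carried a Cre, and whether embryos were pooled are unknown here.

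Aminoacyl-tRNA synthetases load each tRNA with its amino acid and so supply the ribosome with substrate. When amino acids run short or the endoplasmic reticulum is stressed, kinases phosphorylate the initiation factor eIF2, general translation slows and the mRNA of Atf4 is translated more. ATF4 protein then binds composite C/EBP-ATF elements and induces genes for asparagine and serine synthesis, mitochondrial folate enzymes, many synthetases, amino acid transporters and feedback regulators. In brain endothelium the barrier's amino acid transporters are among the most abundant transcripts. Axin1 protein holds together the machinery that degrades beta-catenin, so extra Axin1 dampens Wnt/beta-catenin signalling.

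Axin1 itself was at 13.6, 14.4 and 15.1 RPKM (reads scaled to transcript length and library depth) in wild type and at 37.8, 38.1 and 37.4 RPKM with overexpression, with the groups far apart (log2 fold change 1.34, limma adjusted p = 2.25e-05). Recovered reads numbered 53524184 to 62507510 in the wild-type libraries and 21076922 to 37040176 in the Axin1 libraries, so depth differed with genotype. The 10 endothelial markers were all present, with a summed level of 3115.5 to 3260.2 RPKM in wild type and 2598.8 to 2803.5 RPKM with Axin1 overexpression. The largest fall was that of Cldn5, at 1147.3 to 1349.7 RPKM in wild type and 693.1 to 814.2 RPKM with Axin1 overexpression. The other 9 markers summed to 1903.1 to 1968.1 and 1861.7 to 2110.4 RPKM and overlapped, but they moved in both directions. Emcn was called higher, from 134, 141 and 134 RPKM to 287, 282 and 282 RPKM. Esam and Tie1 were called lower, and 3 of the 9 had a log2 fold change above 0. Markers of neural progenitors summed to 1704.4 to 1874.1 RPKM and to 2210.4 to 2309.1 RPKM, with 7 of 10 called higher. Most of that sum was Vim and Nes, which endothelium also expresses, and the other 8 markers summed to 201.8 to 277.6 RPKM in wild type and 338.8 to 382.6 RPKM with Axin1 overexpression, with 6 called higher. Neuron markers summed to 474.9 to 611.0 and 591.9 to 610.9 RPKM (4 of 8 higher). Erythroid markers summed to 98.1 to 125.7 and 321.3 to 642.7 RPKM (4 of 5 tested higher, 1 lower), with the globin genes Hba-a1 and Hba-a2 listed at 0. Markers of pericytes and smooth muscle summed to 43.5 to 51.4 and 31.4 to 44.4 RPKM (4 of 9 tested lower), and those of meningeal fibroblasts to 207.5 to 321.6 and 229.2 to 231.2 RPKM (2 of 9 lower). Microglial markers were low in both groups, at 13.1 to 15.0 and 13.5 to 24.6 RPKM (1 of 5 tested higher). These calls, by limma at an adjusted p under 0.05, are to be read beside those of all 12493 tested genes. Of these 14.4% were called higher and 8.37% lower. The column names carry a different tag for each genotype. If that tag marks a run, run and genotype cannot be told apart.

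The sequences below are places where the 8-letter pattern TGATGNAA, the core that ATF4 recognises together with a C/EBP protein, lay in the promoters of the listed genes. It was searched on both strands (TTNCATCA on the other) in RefSeq promoter windows of 300 bases, from 250 before to 50 after the start site, on build GRCm38.p6. Of the 33 genes 26 had a window. Matches lay in 5 of the 13 synthetase genes with a window (38.5%) and in 3 of the 13 genes of the Atf4 group (23.1%), against 3.97% of all 32851 windows. Each sequence is 30 bases on the gene's own strand, 5′ to 3′, with the match in capitals. They are shown because they are the elements through which the pathway is known to act, and because genes with and without them are compared further on.

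Aars (alanine, plus strand, chr8:111033840-111033869): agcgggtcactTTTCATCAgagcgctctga
Gars (glycine, plus strand, chr6:55037960-55037989): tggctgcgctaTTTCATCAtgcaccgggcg
Iars (isoleucine, plus strand, chr13:49682126-49682155): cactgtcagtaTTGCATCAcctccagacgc
Tars (threonine, minus strand, chr15:11399655-11399684): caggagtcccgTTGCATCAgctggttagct
Yars (tyrosine, plus strand, chr4:129189895-129189924): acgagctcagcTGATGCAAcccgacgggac
Asns (minus strand, chr6:7693214-7693243): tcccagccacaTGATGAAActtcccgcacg
Trib3 (minus strand, chr2:152344028-152344057): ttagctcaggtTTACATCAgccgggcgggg
Chac1 (plus strand, chr2:119351038-119351067): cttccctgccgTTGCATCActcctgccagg

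Among the sequences shown, the letters TTGCATCA were in Iars, Tars and Chac1, and the same letters on the opposite strand, TGATGCAA, in Yars. Most of these matches lay close to the start site. In Gars, Tars and Asns the first base of the match was 30, 15 and 23 bases upstream of it, and in Yars, Iars, Aars and Trib3 it lay inside the transcript, 4 to 15 bases past the start. The match shown for Chac1 lay 193 bases upstream. A match is only a match of letters, and binding was not measured.

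The synthetases were expressed at moderate and rather even levels in wild-type endothelium. Per length of transcript their wild-type means ran from 10 ± 1.08 RPKM (SD, n = 3) for Cars, the cysteine enzyme, to 67.0 ± 2.72 RPKM for Kars, the lysine enzyme. Gars (50.7 RPKM), Dars for aspartate (43.9) and Hars for histidine (39.6) followed Kars, while Vars for valine (14.8), Iars (14.3) and Mars for methionine (13.6) lay just above Cars. Of the 19 steps between neighbours in this order 12 were smaller than 1 SD of the replicates, so much of the order was not resolved. Vars and Iars, near the bottom, were only 0.226 SD apart, while the first and last places were resolved. Kars stood 3.6 SD above Gars, and Mars stood 4.38 SD above Cars. Both subunits of the phenylalanine enzyme were present, Farsb at 37.4 ± 1.61 RPKM and Farsa at 26.3 ± 1.51 RPKM (SD, n = 3). The order with Axin1 overexpression was nearly the same, with Kars, Gars, Dars and Hars at the top and Cars at the bottom. The largest move was that of Qars, the glutamine enzyme, from place 11 to place 14. Each synthetase rested on 774 to 8325 reads per library.

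**Figure D1:**
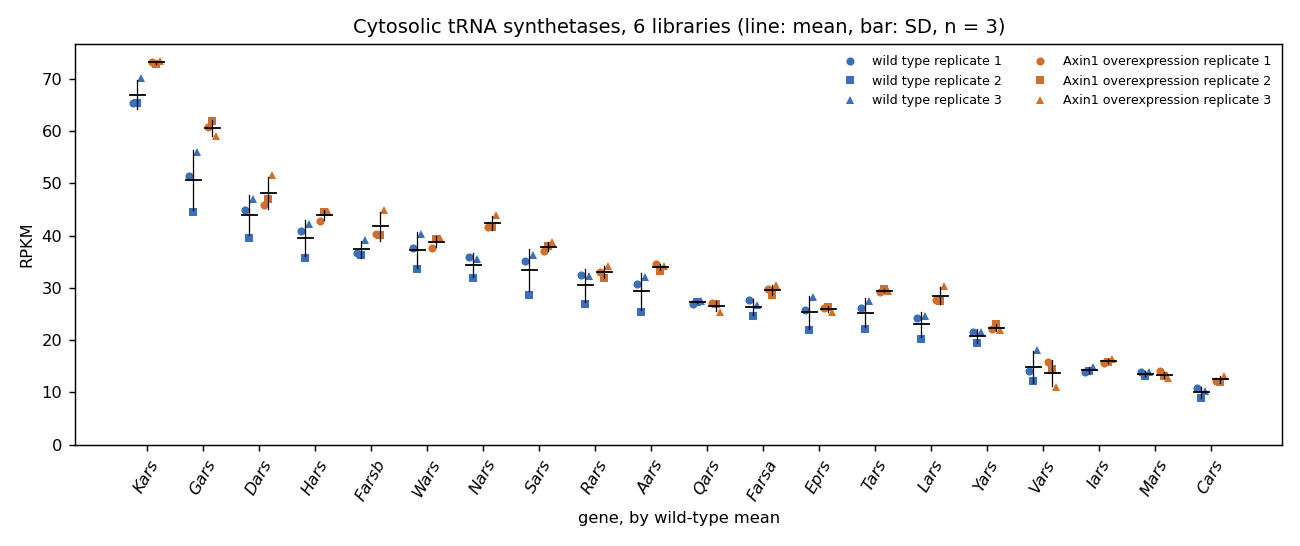
RPKM of the 20 cytosolic synthetase genes in the 6 libraries, ordered by wild-type mean. Points are libraries, with shape giving the replicate, horizontal lines are means and vertical bars SD (n = 3); replicate 2 of wild type (blue square) is the lowest wild-type point for 17 of the 20 genes.

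With Axin1 overexpression the cytosolic synthetases leaned up by small amounts, and 3 of the 20 rose by limma at an adjusted p under 0.05, while 0 fell. At an unadjusted p under 0.05 limma had 9 higher and 0 lower, and voom on recovered reads called 4 higher and 0 lower. Over all 12493 tested genes voom called 2018 higher and 1015 lower. The share of all genes under the unadjusted threshold was not counted. Unadjusted counts, here and for the lists below, therefore have no share to be read against. The asparagine enzyme gene Nars was at 35.9, 31.8 and 35.6 RPKM in wild type and at 41.6, 41.6 and 43.9 RPKM with Axin1 overexpression. All Axin1 values lay above all wild-type values, and the log2 fold change, here and below on the log2(RPKM + 1) scale, was 0.29 (SE 0.07, limma adjusted p = 0.0187). Lars, the leucine enzyme, was at 24.2, 20.2 and 24.6 RPKM and then at 27.6, 27.5 and 30.4 RPKM, also without overlap (log2 fold change 0.30, SE 0.09, limma adjusted p = 0.0386). Cars was at 10.9, 8.82 and 10.3 RPKM and then at 12.2, 12 and 13.2 RPKM (log2 fold change 0.30, SE 0.08, limma adjusted p = 0.0352). In bulk RNA a change in the share of cells that carry a transcript and a change in the transcript per cell cannot be told apart.

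The share called higher, 15.0%, was close to that of all 12493 tested genes, of which 14.4% were called higher, 8.37% lower and 22.8% in either direction. The number of calls is therefore no result about the synthetases. The uncalled members also lay mostly above 0. In all, 17 of 20 (85.0%) had a log2 fold change above 0, against 58.8% of all tested genes, and for 13 of 20 (65.0%) every Axin1 value exceeded every wild-type value, against 28.0%. Their median log2 fold change was 0.15, beside 0.04 for all tested genes. The values are small, since 0.30 is a ratio of about 1.24 for Lars (28.5 against 23.0 RPKM).

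Below the 3 called genes came Gars (log2 fold change 0.26, limma adjusted p = 0.0606), Tars (0.22, 0.0836), Aars (0.21, 0.113) and the serine enzyme gene Sars (0.19, 0.158). In Gars the libraries stood at 51.5, 44.6 and 56.1 RPKM in wild type and at 60.8, 62.0 and 59.0 RPKM with Axin1 overexpression, and in Tars at 26.1, 22.1 and 27.4 RPKM and at 29.2, 29.8 and 29.4 RPKM. The groups did not overlap in either gene, and the wild-type libraries were much more scattered than the Axin1 libraries. Farsa (0.17), Farsb (0.16), Iars (0.15), Hars (0.15), Kars (0.13) and Yars (0.10) had no overlap between groups either and did not pass. The gap between groups was less than 1 RPKM in Yars, Hars, Sars and Iars. The highest wild-type and lowest Axin1 values were 21.6 and 22.0 RPKM in Yars and 42.3 and 42.9 RPKM in Hars. In Sars they were 36.3 and 37.0 RPKM, and in Iars 14.9 and 15.7 RPKM.

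Dars (0.14), Rars for arginine (0.12), Wars for tryptophan (0.06) and Eprs, the fused glutamate and proline enzyme (0.04), overlapped between the groups. The 3 genes with a log2 fold change below 0 were Mars (-0.03), Qars (-0.04) and Vars (-0.09), with limma adjusted p between 0.635 and 0.765. Qars was nearly level in wild type, at 27.0, 27.3 and 27.5 RPKM, and stood at 27.2, 26.9 and 25.3 RPKM with Axin1 overexpression. Vars had the largest SE of the 20 synthetases (0.16). It was at 14.1, 12.1 and 18.1 RPKM in wild type and at 15.9, 14.4 and 11 RPKM with Axin1 overexpression.

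**Figure D2:**
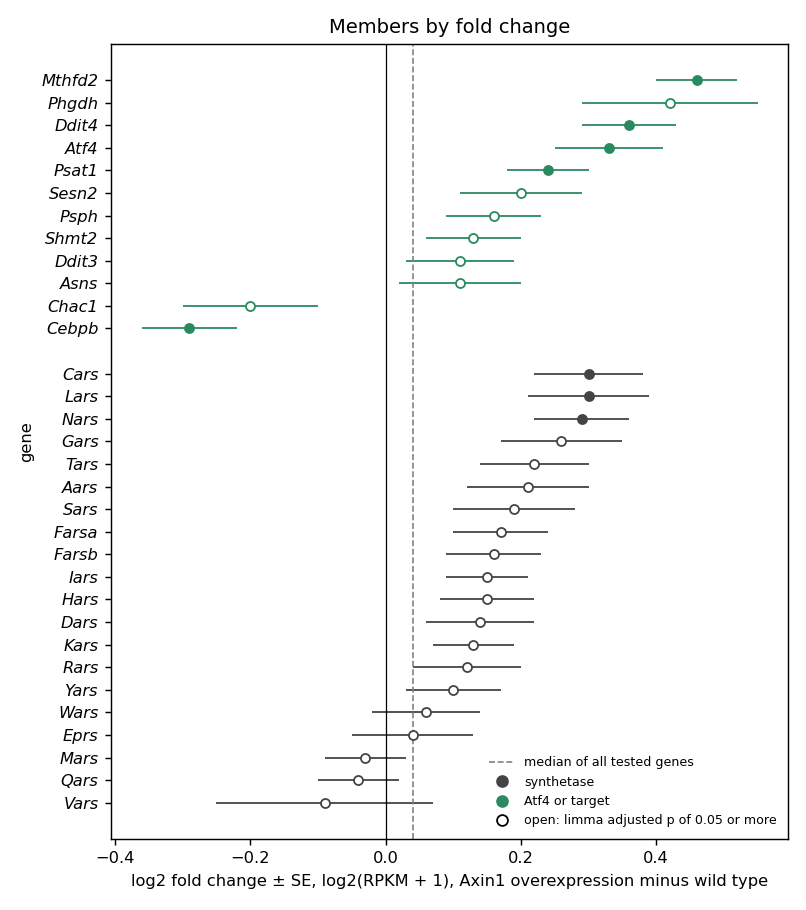
Log2 fold change of log2(RPKM + 1), Axin1 overexpression minus wild type, with its SE for the 32 tested genes; filled points passed limma at an adjusted p under 0.05 and the dashed line is the median of all tested genes (0.04). Mthfd2 has the highest value (0.46) and Cebpb the lowest (-0.29), and 17 of 20 synthetases lie above 0.

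The size of the lean depended on 1 wild-type library. Wild-type replicate 2 was the lowest wild-type library for 17 of the 20 (85.0%), against 38.4% of all tested genes. Its synthetases lay at a median of -0.21 from the mean of the 6 libraries on the log2(RPKM + 1) scale, while the other wild-type libraries lay at -0.03 and 0.02 and the Axin1 libraries at 0.06, 0.06 and 0.11. For all tested genes the same medians stayed between -0.02 and 0.04. The neural progenitor markers were also lowest in that library, at -0.42, against -0.12 and -0.17 in the other wild-type libraries and 0.14 to 0.30 in the Axin1 libraries. The part of the neural progenitor RNA in the synthetase values was not tested. The wild-type SD exceeded the Axin1 SD for 17 of the 20 synthetases. Without wild-type replicate 2 the median log2 fold change was 0.10, 15 of 20 values were above 0 and 1 gene, Nars, was called. Over all tested genes that fit had 60.1% above 0, and 1389 of 12495 were called higher.

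Lars and Cars depended on the choice of libraries. Of the 6 fits that left out 1 library, 4 kept the Nars call, which was lost without Axin1 replicate 2 or 3. The Lars call was kept only without wild-type replicate 3, and that of Cars only without wild-type replicate 1. Correcting each library for the GC content and length of transcripts ended all 3 calls, with log2 fold changes of 0.26 for Cars, 0.24 for Lars and 0.19 for Nars, and took the median of the synthetases to 0.06. After rescaling by the median of ratios, Nars alone passed, the median of the synthetases was 0.11 and 16 of 20 were above 0. This rescaling moved the median of all genes from 0.04 to 0.00. Of all genes 50.4% were then above 0, and 1297 of 12490 were called higher.

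**Figure D3:**
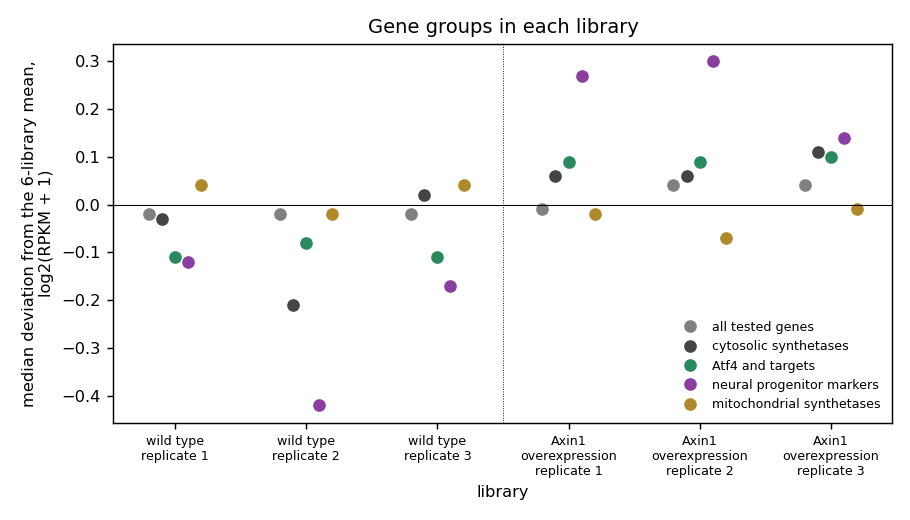
Median over the genes of a group of the deviation of log2(RPKM + 1) from the mean of the 6 libraries, for each library. Wild-type replicate 2 lies lowest for the synthetases (-0.21) and the neural progenitor markers (-0.42). The medians of Atf4 and its targets are alike in the 3 wild-type libraries (-0.08 to -0.11), though single genes of that group are not.

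Synthetases fall into 2 structural classes with unrelated catalytic folds, and 8 of the genes listed encode enzymes of the multi-synthetase complex. Eprs carries an enzyme of each class and is counted here in class I. With that choice, all 10 class II genes had a log2 fold change above 0 (0.13 to 0.29, median 0.18) and 9 of them had no overlap between groups. Of the 10 class I genes 7 were above 0 (median 0.08) and 4 had no overlap, though both Cars and Lars belong to this class. The 8 genes of the complex (Eprs, Iars, Lars, Mars, Qars, Rars, Kars and Dars) had a median of 0.12, with 1 called. Over all tested genes 58.8% were above 0, and for 28.0% every Axin1 value exceeded every wild-type value. Wild-type replicate 2 was the lowest wild-type library for 9 class II genes and 8 class I genes. Its medians from the mean of the 6 libraries were -0.24 and -0.19. Without it the log2 fold changes ran from 0.06 to 0.24 in class II and from -0.22 to 0.22 in class I. With GC content and length corrected for, they ran from -0.04 (Dars) to 0.32 (Aars) in class II. In class I they then ran from -0.09 (Qars) to 0.26 (Cars). These splits are descriptions, and the difference between classes was not tested.

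Of the non-catalytic scaffolds of the complex, Eef1e1 rose from 17.4, 18.3 and 17.7 RPKM to 22.2, 22.6 and 23.3 RPKM. Its log2 fold change was 0.33 (SE 0.06, limma adjusted p = 0.00623), larger than that of any synthetase here, and it passed in all 16 alternative settings. Aimp1 rose by 0.28 (adjusted p = 0.0337), and Aimp2 stood at 0.12 and did not pass. The synthetase-like gene Tarsl2 fell by 0.24 on the log2 scale (adjusted p = 0.0446), from 6.67, 5.68 and 6.38 RPKM to 4.87, 5.44 and 5.04 RPKM. This call was kept without wild-type replicate 2 and lost without any of the other libraries. Aimp1 was kept only without wild-type replicate 1.

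The mitochondrial synthetases are encoded by separate nuclear genes. Of 17 tested, 0 were called higher and 1, Lars2, was called lower by limma, with 4 log2 fold changes above 0 (23.5%) and a median of -0.05. Over all tested genes 14.4% were higher, 8.37% lower and 58.8% above 0. At an unadjusted p under 0.05 there were 0 higher and 4 lower, and voom called 0 and 1. Lars2 was at 349, 263 and 342 RPKM in wild type and at 79.0, 133 and 124 RPKM with Axin1 overexpression (log2 fold change -1.52, SE 0.19, limma adjusted p = 0.00186), and it was called in all 16 alternatives. Its wild-type mean of 318 RPKM was far above that of every other mitochondrial synthetase (3.22 to 18 RPKM) and above that of every cytosolic one. Whether all of these reads came from Lars2 mRNA was not tested, so the level and the fall may not be those of the mRNA. Mars2 (-0.24) and Vars2 (-0.21) came next by p and did not pass.

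Among Atf4 and its targets 12 of 13 genes passed the filter of a mean of at least 1 RPKM, 4 rose and 1 fell. That is 33.3% higher and 8.33% lower, beside 14.4% and 8.37% of all tested genes. For 6 genes (50%) every Axin1 value exceeded every wild-type value, against 28.0% of all, and 10 of 12 log2 fold changes were above 0, with a median of 0.18. Unlike those of the synthetases, the medians of this group were alike in the 3 wild-type libraries. They were -0.11, -0.08 and -0.11 from the mean of the 6, and 0.09, 0.09 and 0.10 in the Axin1 libraries. Within the group, wild-type replicate 2 still stood apart. Its median was -0.16 for the 5 serine and folate genes (-0.10 and -0.12 in replicates 1 and 3). For the 5 tested stress regulators it was 0.05 (-0.12 and -0.08).

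Atf4 mRNA, which encodes the transcription factor at the head of the response, was at 90.8, 99.6 and 93.1 RPKM in wild type. It was at 108, 119 and 131 RPKM with Axin1 overexpression, above every wild-type value. The means were 94.5 ± 4.55 and 119 ± 11.5 RPKM (SD, n = 3), and limma gave a log2 fold change of 0.33 with an SE of 0.08 and an adjusted p of 0.0225. Leaving out wild-type replicate 1 or 3, or Axin1 replicate 2 or 3, ended the call, and the log2 fold change stayed between 0.26 and 0.40 in all 16 alternatives. The level of mRNA on ribosomes says nothing of how much ATF4 protein was made per mRNA, since no input RNA is among these libraries.

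Mthfd2 is the mitochondrial folate enzyme that makes formyl units from the carbon of serine. In the main limma fit it had the highest log2 fold change of the 32 tested genes. Phgdh exceeded it in some alternatives, among them a pseudocount of 0.1 (0.62 against 0.52) and voom (0.64 against 0.54). It also did so without wild-type replicate 1 (0.48 against 0.43) and without Axin1 replicate 2 (0.54 against 0.48). Mthfd2 was at 5.40, 6.00 and 5.65 RPKM in wild type and at 8.18, 8.01 and 8.40 RPKM with Axin1 overexpression, with the 2 groups clearly apart. The log2 fold change was 0.46 (SE 0.06, limma adjusted p = 0.00235), higher than that of 97.2% of tested genes. It passed in all 16 alternatives, with values from 0.21 with a pseudocount of 10 to 0.54.

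The 4 genes listed here for making serine and splitting it, which supply Mthfd2 with carbon, had log2 fold changes from 0.13 to 0.42, and 1 of them, Psat1, rose. Psat1, the transaminase of the pathway, was very even in wild type, at 39.5, 39.7 and 39.6 RPKM, and reached 45.8, 48.6 and 46.1 RPKM (log2 fold change 0.24, SE 0.06, limma adjusted p = 0.0218). It no longer passed when wild-type replicate 1 or 3 or Axin1 replicate 2 or 3 was left out, or with GC content and length corrected for (0.14). Phgdh, which commits 3-phosphoglycerate to serine, was low, at 1.68, 1.06 and 1.74 RPKM in wild type and at 2.60, 1.82 and 2.58 RPKM with Axin1 overexpression. It did not overlap but just missed the threshold (log2 fold change 0.42, SE 0.13, limma adjusted p = 0.0509), and its value ran from 0.10 with a pseudocount of 10 to 0.64 among the alternatives. It passed with trend and robust variances (limma adjusted p = 0.0486) and without Axin1 replicate 2 (0.0419). Psph, the last step to serine, had a log2 fold change of 0.16 (adjusted p = 0.116), and Shmt2, which splits serine into glycine and a folate-bound carbon, one of 0.13 (adjusted p = 0.195). The neural progenitor and erythroid markers given above were higher in the same libraries, and their part in the values of the serine pathway and Atf4 was not tested.

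Asns, the asparagine synthetase gene whose promoter carries the element shown above and which is widely used as a readout of ATF4, did not pass. It stood at 15.1, 13.7 and 12 RPKM in wild type and at 15.4, 14.6 and 14 RPKM with Axin1 overexpression, and the groups overlapped. The log2 fold change was 0.11 (SE 0.09, limma adjusted p = 0.371), with values of 0.00 to 0.18 and 0 calls in the 16 alternatives.

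The stress regulators went both ways. Ddit4, an inhibitor of mTORC1 induced by several stresses, rose from 59.0, 62.9 and 54.0 RPKM to 75.2, 75.7 and 74.9 RPKM. The 3 Axin1 libraries were almost identical, and the log2 fold change was 0.36 (SE 0.07, limma adjusted p = 0.0102), with a call in all 16 alternatives. Cebpb, a C/EBP partner and target of ATF4, fell by 0.29 on the log2 scale, from 3.28, 3.79 and 3.36 RPKM to 2.52, 2.94 and 2.52 RPKM (SE 0.07, limma adjusted p = 0.0263). It was not called when wild-type replicate 2 or one of Axin1 replicates 1 and 3 was left out, with a pseudocount of 10, with voom or with GC content and length corrected for.

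The genes that mark strong or lasting activation of the pathway were low and did not pass. Ddit3, the pro-apoptotic factor CHOP, was at 6.99, 8.02 and 7.13 RPKM and then at 7.97, 8.84 and 7.37 RPKM, with the groups overlapping (log2 fold change 0.11, limma adjusted p = 0.334). Chac1, which degrades glutathione, was at 2.74, 2.79 and 2.14 RPKM and then at 1.94, 1.93 and 2.44 RPKM, a log2 fold change of -0.20 (limma adjusted p = 0.169). Sesn2, a leucine-binding inhibitor of mTORC1 signalling, was at 6.42, 7.24 and 7.19 RPKM and then at 9.35, 7.95 and 7.14 RPKM (log2 fold change 0.20, limma adjusted p = 0.156). Axin1 replicate 1 gave the high value, and replicate 3 lay within the wild-type range. Trib3, a pseudokinase that feeds back on ATF4, was not tested, since its mean was 0.897 RPKM. It stood at 0.613, 1.13 and 0.509 RPKM in wild type and at 0.683, 0.777 and 1.66 RPKM with Axin1 overexpression, on 51 to 124 reads per library, and the groups overlapped.

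**Figure D4:**
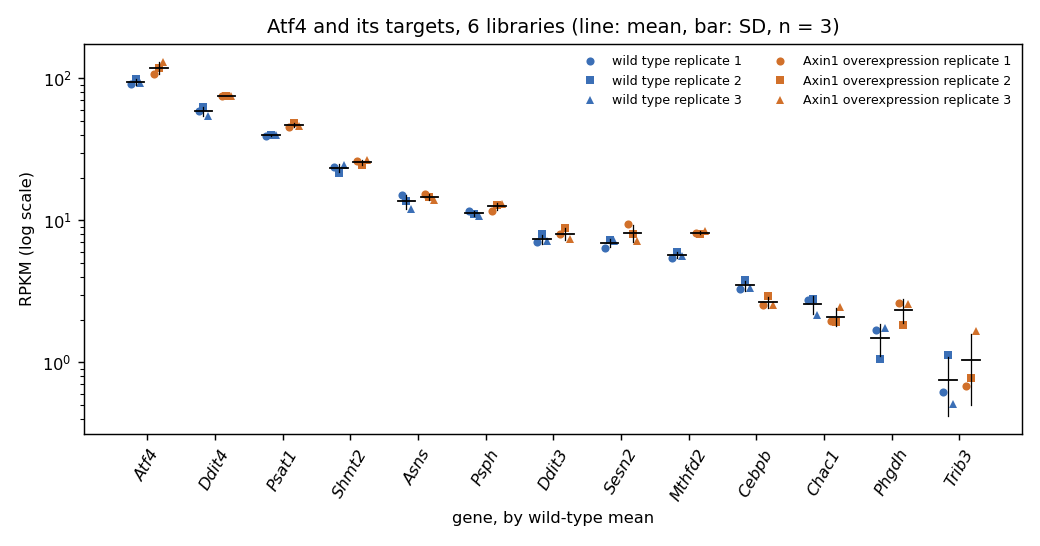
RPKM on a log scale of Atf4 and the 12 genes known as its targets in the 6 libraries, ordered by wild-type mean. Points are libraries, horizontal lines means and vertical bars SD (n = 3); Mthfd2, Ddit4, Psat1 and Atf4 are higher with Axin1 overexpression without overlap, Cebpb is lower, and Asns, Ddit3 and Trib3 overlap.

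The authors' deposited table, which tests normalized counts, gave an adjusted p under 0.05 to 2 of the 33 genes, against 8.88% of all genes it tested. These were Mthfd2 (0.00242) and Ddit4 (0.0166) in the authors' deposited table. Atf4 had an adjusted p of 0.0574 there, and Nars, Lars and Cars had 0.108, 0.114 and 0.132 in the authors' deposited table.

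The calls did not fall on the genes whose promoter window held TGATGNAA. The 5 synthetase genes with a match had log2 fold changes of 0.10 to 0.26 (median 0.21), and the 8 with a window and no match had values of -0.04 to 0.19 (median 0.14), with 0 called by limma at an adjusted p under 0.05 in either set. Nars, Lars and Cars had no window. In the Atf4 group the 2 tested genes with a match, Asns (0.11) and Chac1 (-0.20), did not pass, while all 5 called genes were among the 10 with no match in the window. No match says only that these letters are not in this window, and these numbers are too small for a comparison.

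Further genes of the pathway lay on both sides of 0. Of 28 further genes of the Atf4 response 26 were tested, with 2 higher, 1 lower and a median of 0.04. That is 7.69% higher and 3.85% lower, below the 14.4% and 8.37% of all tested genes, whose median was also 0.04. Cebpg, a dimer partner of ATF4, rose by 0.25 (from 16.3 ± 0.79 to 19.6 ± 1.04 RPKM, SD, n = 3) and Vegfa, the endothelial growth factor, by 0.32, while Stc2, a secreted glycoprotein, fell by 0.30 on the log2 scale. Each of these calls was lost when 1 of several libraries was left out, namely wild-type replicate 1 or either of Axin1 replicates 2 and 3 for Cebpg and Stc2, and replicate 1 or 2 of either group for Vegfa.

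Upstream of Atf4, 16 genes of the eIF2 kinases, their partners, eIF2B and the phosphatase were tested, with 2 higher and 0 lower by limma (2 and 2 at an unadjusted p under 0.05, 2 and 0 with voom) and a median of 0.06. The 2 of 16 called higher are no larger a share than the 14.4% of all tested genes. Ppp1cc, a catalytic subunit of the phosphatase, rose by 0.35 and Eif2s1, the subunit that is phosphorylated, by 0.33, from 20.3, 19.2 and 21.7 RPKM to 25.5, 25.0 and 27.4 RPKM. Eif2ak4, which encodes the amino acid sensor GCN2, had a log2 fold change of -0.18 and did not pass (limma adjusted p = 0.0675). Of 18 folding genes of the endoplasmic reticulum, which belong to the neighbouring branches of the stress response, 1 was higher (Pdia3, 0.23, lost without any of the 6 libraries) and 0 lower by limma, with a median of 0.09. The share of these folding genes called higher, 5.56%, was below the 14.4% of all tested genes. At an unadjusted p under 0.05 there were 2 higher and 2 lower, and voom called 1 and 1. Phosphorylation was not measured.

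Of 11 other genes of folate and nucleotide metabolism, 4 were higher and 0 lower by limma (8 and 0 at an unadjusted p under 0.05, 4 and 0 with voom), with a median of 0.18. That is 36.4% higher, beside 14.4% of all tested genes. Among these were Tyms (0.28), Gldc (0.41) and Gart (0.21). Gart was lost without any 1 library, and Tyms was kept only without wild-type replicate 3. Gldc was kept only without wild-type replicate 2 or 3.

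Amino acid transporters that ATF4 is known to induce were lower with Axin1 overexpression. Of 12 genes 11 were tested, 8 fell and 0 rose by limma (also at an unadjusted p under 0.05 and with voom), all 11 log2 fold changes were below 0, and the median was -0.51. The share lower was 72.7%, beside 8.37% of all tested genes. The arginine and lysine carrier gene Slc7a1 was at 198, 207 and 219 RPKM in wild type and at 67.9, 69.2 and 77.8 RPKM with Axin1 overexpression (log2 fold change -1.53). Slc1a4 for neutral amino acids (-1.30), Slc7a5 and its heavy chain gene Slc3a2 (-0.98 and -0.77), Slc38a3 (-0.97) and Slc38a2 (-0.51) were called in all 16 alternatives. Slc6a9 (-0.46) and the cystine carrier gene Slc7a11 (-0.32), both under 4 RPKM, were called as well. Slc7a11 was lost without Axin1 replicate 3, and Slc6a9 without Axin1 replicate 1 or 3. Several of these carriers are also known markers of the blood-brain barrier. In the same libraries 3 of 10 endothelial markers were called lower and 1, Emcn, higher (median -0.14). Their sum without Cldn5, which includes the raised Emcn, overlapped between the groups, as given above. The part of the endothelial markers in the transporter values was not tested.

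**Figure D5:**
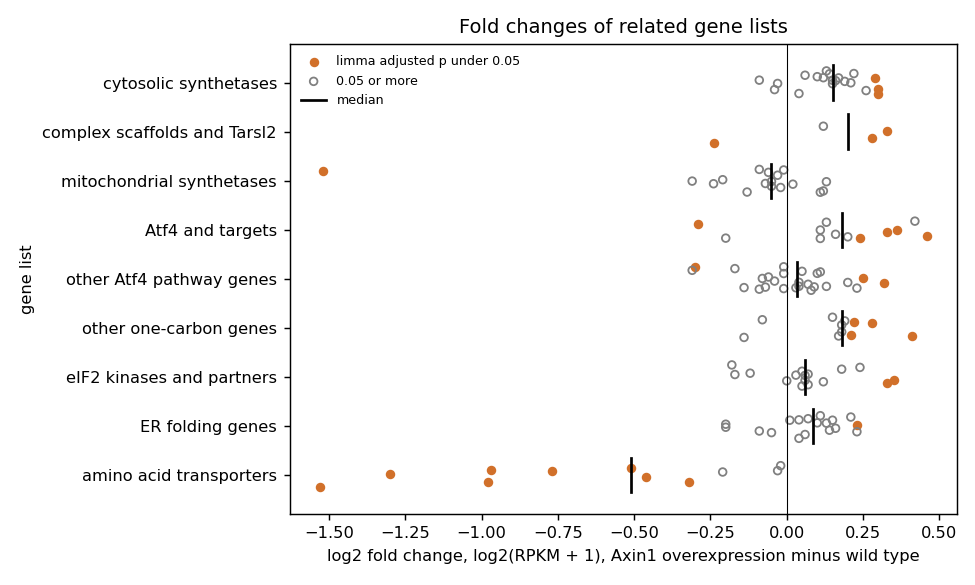
Log2 fold change of log2(RPKM + 1), Axin1 overexpression minus wild type, for the tested genes of 9 lists; filled points passed limma at an adjusted p under 0.05 and black lines are medians. The cytosolic synthetases (median 0.15) and Atf4 with its targets (0.18) lie above 0, the mitochondrial synthetases just below it (-0.05, with Lars2 at -1.52) and the transporters below (-0.51).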

How the data were processed

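The authors deposited a single table, with 1 row per gene symbol and its RefSeq transcripts. Bowtie, DESeq and the build mm9 are named, with no versions, per the submitters' processing notes. The sources used here do not name the read counter. Per library the deposited values are RPKM, a unit settled from the values, since no header names it. Per the file headers, the authors also deposited a normalized count signal averaged over each group, a p-value and its adjusted form. Reads were recovered by combining RPKM with these means; 100.0% of the values of 1-transcript genes, and 83.6% of all, lay within 0.05 of a whole read. For genes with several transcripts that share was 24.0%. The recovered reads of the 10 such members, Nars and Cars among them, are therefore less certain. Chi-square per degree of freedom between replicates was 6.85 to 37.1, above sampling noise, so no library was treated as a duplicate.

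The test was limma (3.58.1, under R 4.3.3) of genotype alone, applied to log2(RPKM + 1) of the 12493 rows with a mean of at least 1 RPKM, and p-values were adjusted by Benjamini-Hochberg over all of them (two-sided, threshold 0.05). The pseudocount understates changes of low genes. An exact permutation test of 3 against 3 cannot go below 0.1 and was not used. The limma step was tested on simulated data, with changes larger than those of the members and no shift of a whole library. That test does not bear on calls of changes as small as those reported here. Alternatives were 2 rescalings, pseudocounts of 0.1 and 10, a minimum mean of 5 RPKM, no minimum, trend and robust variances, voom on recovered reads, a loess correction (span 0.5) for GC content and length from GENCODE transcripts, the replicate number as a block and leaving out each library. The members and lists were chosen with earlier results of these data known. All members are named, with at most the 3 lowest p of each pathway list and every called transporter; 1 such gene and 1 sequence are not reported here; Gart, the fourth called gene of its list, and genes named beyond the rule were chosen after their values were seen. Tables and plots used pandas 2.3.3, numpy 2.4.6, matplotlib 3.10.9 and Python 3.11.15.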

Additional observations from a re-analysis of the deposited data

How the results depend on the processing

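Among the synthetases 0 were called lower in any of the 16 alternatives. The number higher went from 3 to 1 with the median of ratios or the upper quartile and to 0 with the correction for GC content and length, where the median log2 fold change was 0.06. Leaving out 1 library gave 0 to 3 higher and a median of 0.10 to 0.18. For Atf4 and its targets, leaving out 1 library gave 2 to 4 higher, 0 to 1 lower and a median of 0.16 to 0.21. Cebpb was not called lower (0 lower) with a pseudocount of 10, a mean of at least 5 RPKM (not tested there), voom or the correction. The median was 0.14 with the median of ratios and with the correction, 0.12 with the upper quartile, 0.10 with a pseudocount of 10, 0.20 with no filter or the higher minimum and 0.21 with voom. Over all genes 1800 were higher and 1046 lower, or 1297 and 1338 with the median of ratios, 1117 and 1467 with the upper quartile and 837 and 937 with the correction. Without 1 library these were 580 to 1489 and 471 to 930, lowest without Axin1 replicate 2 (Axin1 replicate 3 left out: 794 and 606; wild-type replicate 1: 1182 higher). Their median was 0.00, -0.01 and 0.00 under these settings, 0.02 with a pseudocount of 10, 0.01 with no filter, 0.06 with voom and 0.03 to 0.06 without 1 library. The cause of these moves was not tested. Same-numbered libraries of the groups correlated at 0.08, 0.13 and 0.06 in their deviations, each library best with its own number, which does not pair them. With the replicate block 3 synthetases were higher, and 5 genes of the Atf4 group (with Phgdh, limma adjusted p = 0.00693) were higher and 1 lower, with 1591 higher and 1084 lower over all genes. At 21076922 reads, 3 reads (the limit that a count of 0 allows) come to 0.142 RPKM for 1 kb of transcript, so Trib3 is the member that depth limits most.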
